A study of Mus musculus with 61 samples.

Results

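The genes described here are 35 members of the splenic macrophage and iron-recycling program, 35 of the 24421 genes counted in each of 61 mouse RNA-seq libraries, 60 of which were used. They were taken by gene symbol and read in an experiment where they had at least 10 reads over its libraries. The 35 members comprise genes for iron and heme handling, complement C1q, adhesion and growth-factor receptors, scavenger and marginal-zone receptors, uptake of apoptotic cells, Fc receptors, lysosomal enzymes and lipid handling.

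The study examined 2 missense mutations of the same tyrosine in the SH2 domain of STAT5B, Y665F and Y665H, which the authors brought into the germline of C57BL/6N mice by genome editing. The labels give an age of 2 months for all animals, the donors of T cells included. Spleen libraries came from WT mice (n = 4 libraries), homozygous Stat5b Y665H mice (n = 5) and homozygous Stat5b Y665F mice (n = 7), with no cytokine given. Each of these libraries is called a spleen below, though no label ties it to its own animal. The mutations are present in every cell of these animals, in macrophages, their precursors and all other spleen cells alike. Splenic T cells were isolated with a kit and kept for 24 h with IL-2 and IL-7 (4 libraries of WT, 3 of Y665H and 4 of Y665F), and Y665F cells were also sequenced without interleukins (3 libraries). For the latter the labels give no time in culture, so interleukins and culture cannot be told apart. The study's text has unstimulated T cells sequenced on isolation, but for its comparison of Y665F with Y665H splenocytes. Whether this also holds for the 3 libraries here is not stated. Another deposited library, Y665H replicate 4 of the splenic T cells, equals at each of the 24421 genes the sum of Y665H replicates 1 and 2 (3310342 and 2017012 reads on genes, together 5327354). It holds no reads of its own and was left out of all values here. CD4+ T cells were sorted as naive cells from pooled spleen and lymph nodes, activated, transduced with an empty vector or with STAT5B, N642H, Y665F or Y665H, sorted for the GFP of the vector after 48 h in IL-2 (3 libraries per vector, WT or Stat5a/b-null). In the null cells Cd4-Cre had deleted the floxed Stat5a/b locus during thymic development, also in those that received the empty vector. The genotype label of all 30 CD4+ libraries reads floxed, so WT and null were told apart by their titles. The titles of the spleen libraries read splenocyte and their source reads spleen. The study's methods name frozen spleen tissue, and an extraction note in the labels names mammary tissue. The study's results call the cells of its unstimulated comparison of Y665F with Y665H both T cells and splenocytes. Markers of B cells (summed 3467 to 5153 CPM, counts scaled to the library total) and macrophages were high in every spleen library, and markers of the exocrine pancreas reached 52.9 CPM in 1 Y665H library and 14.3 in 1 Y665F library.

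The red pulp of the spleen clears aged red blood cells. Its resident macrophages depend on the transcription factor SPI-C, take up red cells, open the heme ring with heme oxygenase 1, reduce the biliverdin formed and either store the iron in ferritin or return it to plasma through ferroportin. Other macrophages line the marginal zone, where scavenger receptors such as MARCO and the sialic-acid receptor SIGLEC1 bind particles from blood, or remove dying B cells in the follicles through MERTK. Most of these macrophages need signals of the CSF1 receptor to survive.

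All 35 members had at least 10 reads in the spleens and in the splenic T cells, and 32 in the CD4+ T cells of either background, where C1qa, C1qc and Vsig4 were below it in the null cells. Spleen libraries held 24203179 to 43330536 reads on genes. In levels per length of WT spleen, the order began with Lyz2, the lysozyme of macrophages (median 917 CPM per kb of exon), the ferritin chains Ftl1 (204) and Fth1 (174), Apoe (136), Ctsd (120.4), Hmox1 (103) and Ctsb (94.6). Vcam1 (67.8), Csf1r (66.1), C1qa (64.0) and Slc40a1 (63.8) followed with WT libraries that overlapped each other. Spic stood at 21.6 CPM per kb, Cd163 at 13.7 and Vsig4, the lowest, at 1.06. Ftl1 shares 34.6% of its exon bases with other annotated genes, Ctsd 34.4%, Itgad 19.7%, Csf1r 15.1% and Ctsb 12.8%. Lyz1 and Lyz2 are near-identical neighbours and the ferritin genes have processed copies, so their values are uncertain where reads could have been divided.

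The stretches before the starts of 4 members on which the results turn are printed here to show the regulatory sequence beside the expression values. They are the 250 bases before the RefSeq transcript start (build GRCm38.p6), and capitals mark matches to GAGGAA or its reverse complement TTCCTC, a core bound by the ETS factors PU.1 and SPI-C. The Spic stretch (chr10:88683024-88683273, minus strand) lies within the GENCODE span of its gene (chr10:88674772-88685015), which has a start further upstream. The Cd163 stretch (chr6:124304401-124304650, plus strand) and the Mertk stretch (chr2:128698665-128698914, plus strand) end before their genes begin (chr6:124304656-124330527 and chr2:128698956-128802894), and the Mrc1 stretch (chr2:14229164-14229413, plus strand) runs into the first bases of its gene (chr2:14229392-14332057).
Spic: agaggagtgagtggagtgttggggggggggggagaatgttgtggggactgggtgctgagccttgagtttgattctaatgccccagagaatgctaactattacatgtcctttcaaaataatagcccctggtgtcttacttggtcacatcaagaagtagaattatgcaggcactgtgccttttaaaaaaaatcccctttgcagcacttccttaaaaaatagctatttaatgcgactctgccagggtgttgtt
Cd163: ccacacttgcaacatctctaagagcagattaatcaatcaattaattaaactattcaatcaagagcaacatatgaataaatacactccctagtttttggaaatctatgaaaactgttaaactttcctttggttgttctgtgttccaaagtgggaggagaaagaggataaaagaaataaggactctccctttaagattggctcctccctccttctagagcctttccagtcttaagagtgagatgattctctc
Mrc1: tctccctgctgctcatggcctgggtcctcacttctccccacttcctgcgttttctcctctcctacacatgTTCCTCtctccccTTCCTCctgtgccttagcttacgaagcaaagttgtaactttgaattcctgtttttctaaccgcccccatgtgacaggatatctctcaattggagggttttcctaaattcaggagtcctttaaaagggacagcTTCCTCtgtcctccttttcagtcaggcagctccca
Mertk: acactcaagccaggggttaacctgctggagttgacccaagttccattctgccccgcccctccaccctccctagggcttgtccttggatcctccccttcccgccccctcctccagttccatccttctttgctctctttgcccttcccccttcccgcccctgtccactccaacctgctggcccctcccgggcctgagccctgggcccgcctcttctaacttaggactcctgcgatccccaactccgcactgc
The Mrc1 stretch held 3 matches and the other 3 stretches none. Over the 26 members for which the RefSeq table gave a promoter, 14 (53.8%) held the motif in at least 1 such stretch, against 25.9% of all 27025 genes in the table. Counted by stretch, 23.3% of all 32851 held it. The STAT motif TTCNNNGAA, searched on both strands in the same stretches, was found for 1 member, Fcgr1, and for 8.13% of all genes. The antioxidant-response core TGACNNNGC was found for C1qb and Ctsd and for 11.5% of all genes. These matches are letters in a window and were not tied to binding.

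Before the comparisons, 1 spleen library has to be named. Y665H replicate 1 stood apart from the 4 other Y665H spleens. Its erythroid markers summed to 1358 CPM, against 6394 to 9020 in the others and 1208 to 2816 in WT, and its neutrophil markers to 146 CPM against 424 to 1636. Its T cell markers (736 CPM, against 499 to 552 in the other Y665H and 733 to 847 in WT) and its B cell markers (5060 CPM, against 3467 to 4189 and 4531 to 5153) lay with WT. Its NK cell markers lay with its own group, whose range of 69.4 to 95.6 CPM was below the WT range of 162 to 193. The rRNA precursor gene Rn45s and Lars2 took 5.3% of its reads, against 1.16% to 2.33% in the other Y665H spleens, 1.01% to 2.7% in Y665F and 0.288% to 0.622% in WT. Every mutant spleen was above every WT spleen in this share, and its part in the differences between mutant and WT was not tested. Members that passed a test in Y665H spleens, with or without replicate 1, are given both ways. The tests of other gene lists used all libraries.

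In Y665F spleens, 9 of 35 members were lower than in WT, led by receptors of red-pulp and tissue macrophages. Cd163 was 2.62-fold lower, Mrc1 2.12-fold, Vsig4 1.94-fold, Spic 1.7-fold and Vcam1 1.63-fold. In edgeR's quasi-likelihood test, these 9 were lower at an adjusted p under 0.05 (Benjamini-Hochberg over all 19418 genes), where 6.59% of all genes were lower. None of the 35 was higher, also with DESeq2 and at an unadjusted p under 0.05, where 5.63% of all genes were higher at the adjusted p. Cd163 and Mrc1, 2 of 35, also passed a log2 fold change beyond 1, the threshold for a gene to be called, which 1.2% of all genes passed in either direction. The median log2 fold change over the members was -0.23, against -0.0043 over all genes. Of the 35 values, 27 were negative and 8 positive. With a replicate block by library number, 1 of 35 (Cd163) was lower at the adjusted p, and in a fit of WT and Y665F alone 14 were lower.

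Y665H spleens gave another picture. Against WT, 2 of 35 members were higher, Blvrb and Fth1, where 10.7% of all genes were higher, and none was lower, where 9.05% of all genes were lower. With an unadjusted p under 0.05 and with DESeq2 there were also 0 lower members. Blvrb alone was called, where 4.37% of all genes were called. The median over the members was 0.12 against 0.00052 over all genes. Without Y665H replicate 1, 7 members were higher and 0 lower, and without WT replicate 3, 6 were higher. Both mutants were compared with the same 4 WT libraries.

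Compared directly, 16 of 35 members were lower in Y665F than in Y665H spleens, where 15.3% of all genes were lower, and Lyz1 alone was higher, where 10.5% of all genes were higher. Called by both thresholds were Cd163 and Blvrb, 2 of 35, where 5.28% of all genes were called. The median over the members was -0.48 against -0.011 over all genes, and 34 of 35 values were negative. With Y665H replicate 1 left out, 28 members were lower and 1 higher, and 4 were called. These spleens are bulk tissue and CPM are relative to all reads on genes. The paper reported more splenocytes in homozygous Y665F mice and fewer in Y665H mice than in WT. Fewer macrophages, a smaller share of macrophages among more cells and less RNA per macrophage therefore cannot be told apart.

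**Figure D1:**
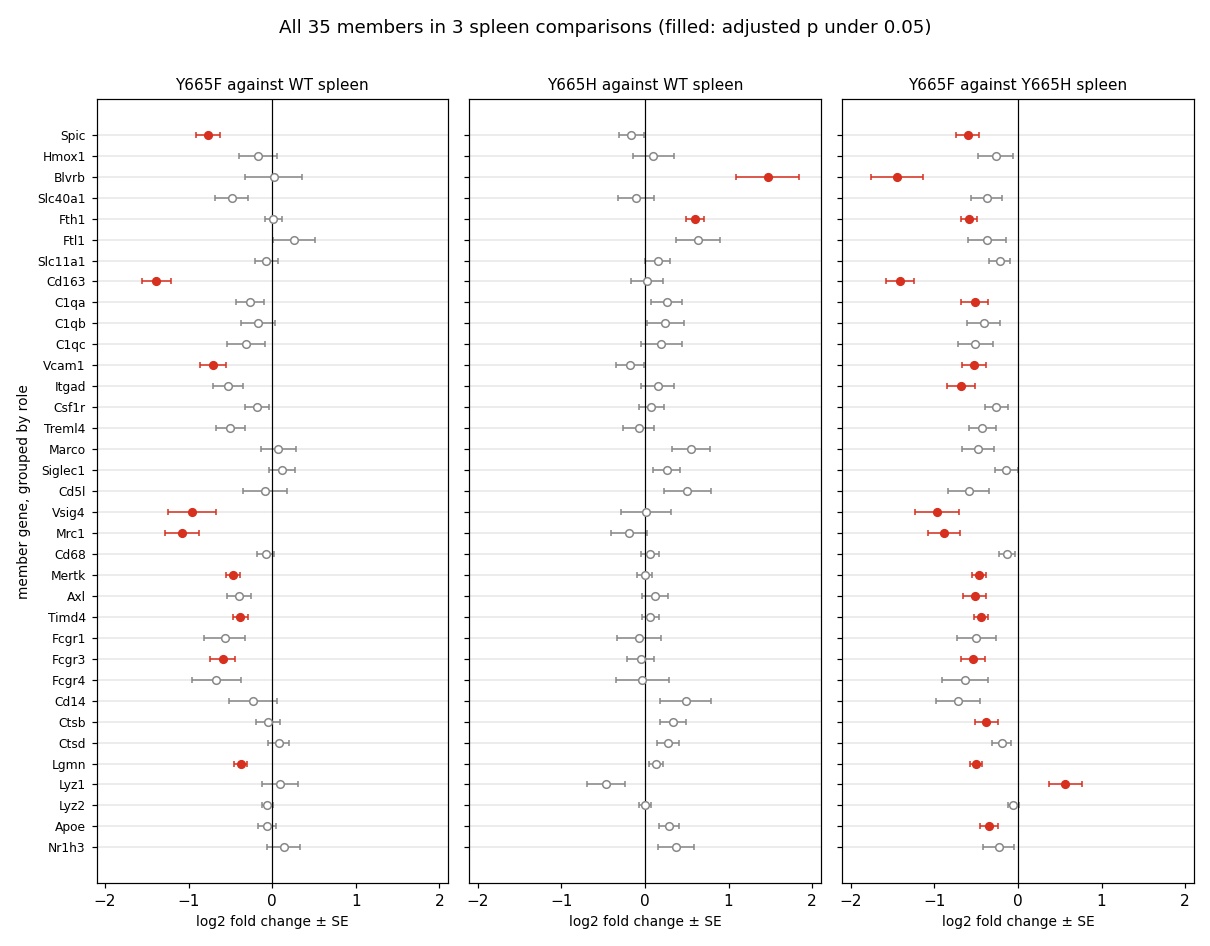
Log2 fold change ± SE of all 35 members in the 3 spleen comparisons, ordered by role, with filled points where the adjusted p is under 0.05. Filled points lie to the left for 9 members in Y665F against WT, to the right for Blvrb and Fth1 in Y665H against WT, and to the left for 16 members in Y665F against Y665H.

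Marker lists of other cells moved in these spleens too. In Y665F spleens the T cell markers summed to 979 to 1294 CPM against 733 to 847 in WT, and 8 of 13 were higher. B cell markers were lower, at 3496 to 4367 CPM against 4531 to 5153, with 3 of 11 lower, and so were those of dendritic cells, at 514 to 585 CPM against 618 to 647, with 3 of 10 lower. In neither list did Y665F and WT overlap. Monocyte markers summed to 923 to 1020 CPM against 695 to 755 in WT. The 2 of 10 that were higher were Ly6c2, a surface protein of inflammatory monocytes, and the fibronectin gene Fn1. This list was also high in isolated T cells with interleukins, at 403 to 600 CPM in WT and 412 to 727 in Y665F. Ly6c2 stood at 42.0 to 101 and 36.7 to 140 CPM there, against 33.7 to 46.3 in WT spleens. Whether the rise in spleens came from monocytes was not tested. Neutrophil markers summed to 425 to 1024 CPM against 234 to 356, with 6 of 12 higher. Stromal and endothelial markers summed to 1323 to 1497 CPM in Y665F and 1406 to 1586 in WT, which overlapped. Of the 3 with the smallest adjusted p, Col1a1 was higher in Y665F than in WT (1.00 ± 0.15 SE). The others, Cxcl13 (-0.66 ± 0.11 SE) and Kdr (-0.35 ± 0.085 SE), were lower. The shares of all genes beside these counts are the 5.63% higher and 6.59% lower given above. The 18 macrophage markers, 17 of which are also members, summed to 1229 to 1697 CPM in Y665F, 1685 to 2182 in WT and 1270 to 2377 in Y665H, and 6 of 18 were lower in Y665F and none higher. Adgre1, the F4/80 antigen and the macrophage marker outside the member list, ranged from 61.2 to 94.9 CPM in Y665F and from 101.3 to 138.9 in WT. In Y665H it ranged from 54.5 to 205.3 CPM and covered both other groups. The 6 that were lower are all members, so Adgre1 did not pass the adjusted p in Y665F against WT. Lyz2, Csf1r, Cd14 and the Fc receptors are known from monocytes too, and the part of these shifts in the members' values was not tested.

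**Figure D2:**
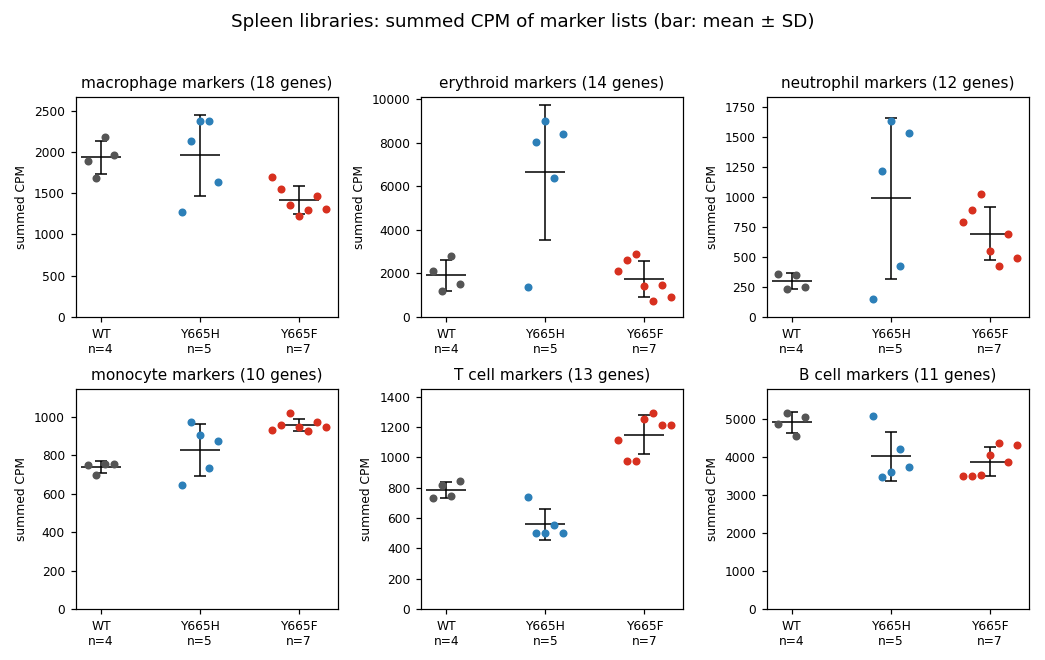
Summed CPM of 6 marker lists in each spleen library, with the mean ± SD of WT (n = 4), Y665H (n = 5) and Y665F (n = 7). Macrophage markers lie between 1229 and 1697 CPM in Y665F, while T cell and monocyte markers lie above the WT libraries, and 4 of 5 Y665H libraries stand above 6000 CPM for erythroid markers.

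Among the genes of iron and heme handling, Spic encodes the transcription factor that red-pulp macrophages need to form. It measured 101, 80.8, 85.0 and 75.9 CPM in the 4 WT spleens and 45.3, 79.3, 89.1, 92.3 and 75.6 in the 5 Y665H spleens. The lowest, median and highest of the 7 Y665F spleens were 41.9, 50.9 and 56.0 CPM. All 7 Y665F spleens lay below all WT spleens, and only Y665H replicate 1 fell into their range. How many of all genes separate groups in this way was not counted, here and for the members below. The log2 fold change of Spic in Y665F against WT was -0.77 ± 0.14 (SE), with an adjusted p of 0.00237 in edgeR. Against Y665H it was -0.60 ± 0.13 (SE) with an adjusted p of 0.00293, and -0.76 ± 0.088 (SE) with 5.14e-06 without Y665H replicate 1. Y665H and WT differed by -0.16 ± 0.15 (SE) with an adjusted p of 0.492.

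Cd163, the scavenger receptor for hemoglobin bound to haptoglobin, had the largest fall of all members in Y665F against WT. Its values were 73.2, 65.2, 78.7 and 76.0 CPM in WT, 44.7, 89.6, 94.2, 70.3 and 74.0 in Y665H, and 21.2, 26.4 and 37.3 as lowest, median and highest in Y665F. The highest Y665F spleen was below the lowest WT and the lowest Y665H spleen, which was replicate 1. The log2 fold change in Y665F was -1.39 ± 0.17 (SE) against WT with an adjusted p of 0.000167 and -1.41 ± 0.17 (SE) against Y665H with 1.68e-05, both from edgeR. Without Y665H replicate 1 the second value was -1.57 ± 0.14 (SE). The mean ± SD was 73.3 ± 5.84 CPM in WT (n = 4), 74.6 ± 19.5 in Y665H (n = 5) and 28.0 ± 6.39 in Y665F (n = 7).

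Slc40a1 encodes ferroportin, the exporter that returns iron to plasma. WT spleens held 579.9, 562, 633 and 568 CPM and Y665H spleens 276, 589, 749.7, 654 and 448. In Y665F the lowest, median and highest were 295, 439.7 and 519 CPM. Every Y665F spleen was below every WT spleen, but the difference of -0.48 ± 0.20 (SE) did not pass the test in edgeR, with an adjusted p of 0.12. The Y665H group spread from 276 to 749.7 CPM and covered both other groups. Against Y665H the difference was -0.38 ± 0.19 (SE) with an adjusted p of 0.156, and without replicate 1 it was -0.56 ± 0.15 (SE) with 0.00591.

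Hmox1, heme oxygenase 1, opens the heme ring. It stood at 156, 146, 224 and 206 CPM in WT, at 97.9, 189, 252, 244 and 198 in Y665H and at 114, 162 and 222 as lowest, median and highest in Y665F. The 3 groups overlapped. None of the spleen comparisons passed for Hmox1 in edgeR, with a difference of -0.16 ± 0.23 (SE) and an adjusted p of 0.678 for Y665F against WT. The 95% interval of that difference ran from -0.61 to 0.28 on the log2 scale.

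Blvrb encodes a biliverdin reductase that red cell precursors express strongly as well. WT spleens measured 36.1, 26.5, 72.2 and 37.6 CPM, Y665H spleens 39.4, 158, 164, 108 and 127, and Y665F spleens 27.5, 35.7 and 63.0 as lowest, median and highest. The 4 Y665H spleens other than replicate 1 were above every WT and Y665F library. The log2 fold change of Y665H against WT was 1.47 ± 0.38 (SE) with an adjusted p of 0.0107 in edgeR, and 1.72 ± 0.31 (SE) without replicate 1. Y665F against Y665H gave -1.45 ± 0.31 (SE) with an adjusted p of 0.00252 (-1.69 ± 0.26 (SE) without replicate 1), and Y665F against WT 0.022 ± 0.34 (SE) with 0.977.

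Fth1, the ferritin heavy chain, was higher in Y665H too. It measured 611, 562, 639 and 598 CPM in WT, 669, 1089, 942, 917 and 950.0 in Y665H and 535, 599.7 and 709.9 as lowest, median and highest in Y665F. Every Y665H spleen lay above every WT spleen, and replicate 1 was the lowest of them. The difference of Y665H from WT was 0.60 ± 0.11 (SE) with an adjusted p of 0.00201 in edgeR, and that of Y665F from WT 0.013 ± 0.10 (SE) with 0.952. Y665F was lower than Y665H, with a log2 fold change of -0.59 ± 0.093 (SE) with an adjusted p of 0.000285. Without replicate 1 the values were 0.73 ± 0.083 (SE) for Y665H against WT and -0.70 ± 0.072 (SE) for Y665F against Y665H.

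Erythroid markers moved with Blvrb and Fth1. They summed to 6394 to 9020 CPM in the 4 Y665H spleens with at least 108 CPM of Blvrb, and to 1358 CPM in replicate 1. In Y665F, the 3 spleens with 57.2 to 63.0 CPM of Blvrb had erythroid sums of 2136 to 2901 CPM, and the 4 with 27.5 to 35.7 CPM had sums of 749.8 to 1461 CPM. By number these were the first 3 and the last 4 replicates. They also differed without overlap in T cell sums (979 to 1115 against 1211 to 1294 CPM) and B cell sums (3496 to 3526 against 3872 to 4367 CPM). Whether the replicates form batches was not tested. In Y665H against WT, 9 of the 12 erythroid markers tested were higher, where 10.7% of all genes were. The defining globin markers Hba-a1 and Hbb-bs were at or near 0 in every library, at most 0.24 CPM, so these sums rest on the other markers. The part of red cell precursors in the Blvrb and Fth1 values was not tested.

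The remaining genes of this role are the ferritin light chain Ftl1, at 155 to 596 CPM over the 16 spleens, and the phagosomal metal transporter Slc11a1, at 26.1 to 43.0 CPM. Neither passed in any spleen comparison with all libraries, and without Y665H replicate 1 Slc11a1 was lower in Y665F than in Y665H, at -0.33 ± 0.12 (SE) with an adjusted p of 0.0446 in edgeR. Ftl1 varied within WT, at 155, 169.8, 462 and 378 CPM. In all, 2 of 8 genes of iron and heme handling fell in Y665F against WT (6.59% of all genes), 2 of 8 rose in Y665H against WT (10.7% of all genes), and 4 of 8 were lower in Y665F than in Y665H (15.3% of all genes). These 3 shares are also those to set beside the counts of the other roles.

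**Figure D3:**
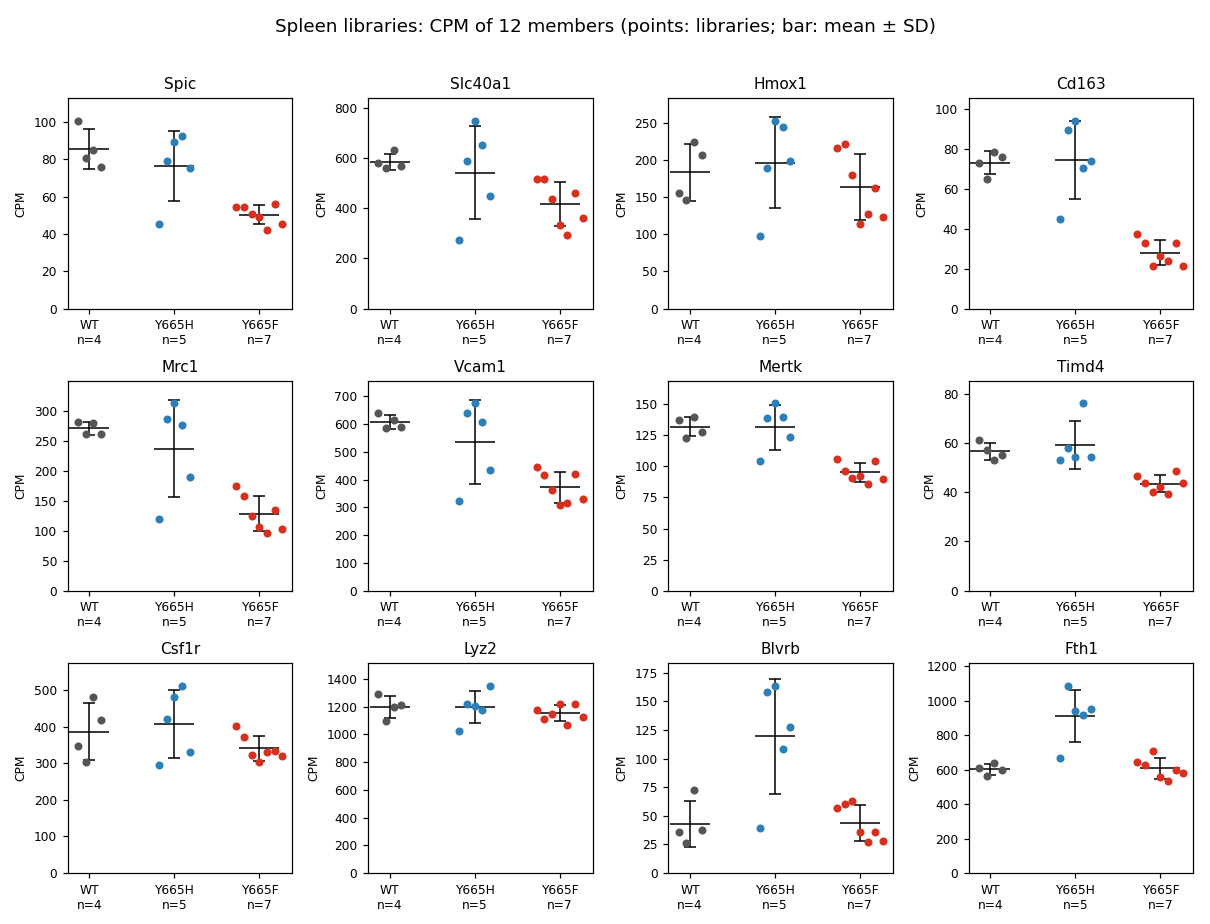
CPM of 12 members in each spleen library, with the mean ± SD of each genotype. Spic, Slc40a1, Cd163, Mrc1, Vcam1, Mertk and Timd4 of all 7 Y665F libraries lie below all 4 WT libraries, though Slc40a1 did not pass its test. Lyz2, Hmox1 and Csf1r overlap between genotypes, and Blvrb and Fth1 are highest in Y665H. The share of all genes that separate in this way was not counted.

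Of the adhesion and growth-factor receptors, Vcam1 is a ligand for integrins that red-pulp macrophages and endothelium carry. It stood at 639, 586, 613 and 589 CPM in WT, at 324, 639.7, 675, 607 and 433 in Y665H and at 310.4, 364 and 446 as lowest, median and highest in Y665F. WT and Y665F did not overlap. The Y665H spleens split, with replicates 1 and 5 among the Y665F values and the others among or above those of WT. The log2 fold change of Y665F was -0.71 ± 0.15 (SE) against WT with an adjusted p of 0.00725 and -0.53 ± 0.15 (SE) against Y665H with 0.0125, by edgeR. With Y665H replicate 1 left out, the second value was -0.69 ± 0.11 (SE).

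Csf1r, the receptor on which macrophages and many monocytes depend, measured 346, 302, 479.6 and 418 CPM in WT and 294, 419.9, 479, 512 and 329 in Y665H. In Y665F the values were 303, 332 and 401 as lowest, median and highest. All 3 genotypes overlapped. For Y665F against WT the difference was -0.18 ± 0.14 (SE) with an adjusted p of 0.425 in edgeR and an interval from -0.46 to 0.095. Against Y665H it was -0.26 ± 0.13 (SE) with 0.168, and -0.37 ± 0.12 (SE) with 0.0246 without Y665H replicate 1.

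Itgad, the integrin chain CD11d of red-pulp macrophages, stood at 63.0, 69.6, 98.1 and 88.3 CPM in WT, 55.2, 100.1, 126, 76.6 and 85.8 in Y665H and 44.3, 52.0 and 71.5 as lowest, median and highest in Y665F. Y665F overlapped both other groups at its upper end. It was lower than Y665H, with a log2 fold change of -0.68 ± 0.17 (SE) with an adjusted p of 0.00647 in edgeR (-0.84 ± 0.15 (SE) without Y665H replicate 1), while -0.53 ± 0.18 (SE) against WT did not pass, at 0.062. Treml4, a receptor of splenic macrophages and dendritic cells, ranged from 22.0 to 49.4 CPM and passed in none of the spleen comparisons with all libraries. Without Y665H replicate 1, it was lower in Y665F than in Y665H, at -0.59 ± 0.13 (SE) with an adjusted p of 0.00208 in edgeR. Of these 4 genes, 1 fell in Y665F against WT and 2 were lower in Y665F than in Y665H.

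Among scavenger and marginal-zone receptors, Mrc1, the mannose receptor of red-pulp and tissue macrophages, was called in Y665F. WT spleens held 280.2, 262, 279.9 and 261 CPM and Y665H spleens 120.1, 286, 312, 276 and 189. Y665F spleens held 96.9, 125 and 174 CPM as lowest, median and highest. Every Y665F spleen was below every WT spleen, and Y665H replicate 1 fell among the Y665F values. The log2 fold change was -1.08 ± 0.20 (SE) against WT with an adjusted p of 0.00248 in edgeR. Against Y665H it was -0.89 ± 0.19 (SE) with 0.00233, short of the fold threshold, and -1.08 ± 0.15 (SE) without replicate 1, past it.

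Vsig4, the complement receptor of tissue macrophages, passed the adjusted p in Y665F against WT as well, at -0.96 ± 0.29 (SE) and 0.0377 in edgeR, but at 0.515 to 2.18 CPM it was the lowest member. Marco, the scavenger receptor of marginal-zone macrophages (22.9 to 78.4 CPM), and Siglec1, that of metallophilic macrophages (45.9 to 85.4 CPM), passed in no spleen comparison with all libraries, and in Y665F against WT their differences were 0.072 ± 0.21 (SE) and 0.12 ± 0.15 (SE). Cd5l, a secreted inhibitor of apoptosis (32.2 to 139 CPM), and the lysosomal glycoprotein Cd68 (26.1 to 38.7 CPM) passed in none either. With Y665H replicate 1 left out, Marco and Cd5l were higher in Y665H than in WT, at 0.73 ± 0.19 (SE) and 0.74 ± 0.21 (SE), with adjusted p of 0.00832 and 0.0163 in edgeR. They were then also lower in Y665F than in Y665H, at -0.65 ± 0.16 (SE) and -0.81 ± 0.18 (SE), with adjusted p of 0.00514 and 0.00234. Vsig4 differed between Y665F and Y665H by -0.97 ± 0.27 (SE) with 0.0128, and by -1.16 ± 0.24 (SE) without replicate 1. Of the 6 genes, 2 fell in Y665F against WT, and the same number was lower in Y665F than in Y665H.

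Of the receptors for apoptotic cells, 2 of 3 fell in Y665F against WT. Mertk, a kinase that binds bridged phosphatidylserine, measured 137, 123, 139 and 128 CPM in WT, 104, 139, 151, 139.5 and 124 in Y665H and 86.0, 92.2 and 106 as lowest, median and highest in Y665F. No Y665F spleen reached the lowest WT spleen, and Y665H replicate 1 lay among the Y665F values. The difference was -0.47 ± 0.086 (SE) against WT with an adjusted p of 0.00217 and -0.47 ± 0.081 (SE) against Y665H with 0.000572, by edgeR (-0.56 ± 0.068 (SE) without Y665H replicate 1). Timd4, which binds phosphatidylserine directly, measured 61.2, 57.2, 53.1 and 54.9 CPM in WT, 53.0, 58.0, 54.4, 76.1 and 54.4 in Y665H and 39.4, 43.6 and 48.7 in Y665F. All Y665F spleens lay below all others. The difference was -0.38 ± 0.091 (SE) against WT with an adjusted p of 0.0121 and -0.44 ± 0.085 (SE) against Y665H with 0.00113, or -0.50 ± 0.086 (SE) without Y665H replicate 1.

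Axl, the kinase related to Mertk, stood at 215, 223, 300.5 and 270.0 CPM in WT, 196, 302, 345, 320.0 and 205 in Y665H and 162, 186 and 229.9 in Y665F as lowest, median and highest. The Y665F values overlapped WT at replicates 1 and 2 of the latter. Axl was lower than in Y665H, with a log2 fold change of -0.52 ± 0.13 (SE) with an adjusted p of 0.00881 in edgeR (-0.64 ± 0.12 (SE) without Y665H replicate 1), and -0.40 ± 0.14 (SE) against WT did not pass, at 0.0763. All 3 uptake receptors were lower in Y665F than in Y665H, and 2 of 3 were lower than in WT.

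Resident macrophages secrete complement C1q, which is built of 3 kinds of chain. C1qa measured 59.6, 51.9, 89.2 and 73.6 CPM in WT, 57.3, 89.9, 106, 94.5 and 62.5 in Y665H and 46.4, 56.9 and 72.9 as lowest, median and highest in Y665F. The groups overlapped. C1qa was lower in Y665F than in Y665H, with a log2 fold change of -0.52 ± 0.16 (SE) with an adjusted p of 0.0216 in edgeR (-0.65 ± 0.15 (SE) without Y665H replicate 1), and against WT the value of -0.26 ± 0.17 (SE) did not pass, at 0.33. C1qb (34.5 to 82.8 CPM) and C1qc (27.8 to 68.5 CPM) passed in no spleen comparison with all libraries. Without Y665H replicate 1 both were lower in Y665F than in Y665H, at -0.55 ± 0.19 (SE) and -0.66 ± 0.21 (SE), with adjusted p of 0.0303 and 0.0194 in edgeR.

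Fcgr3, a receptor for IgG complexes on macrophages, monocytes and NK cells, measured 42.3, 31.9, 45.1 and 36.9 CPM in WT, 24.3, 41.9, 47.4, 40.8 and 33.7 in Y665H and 21.9, 26.7 and 31.6 as lowest, median and highest in Y665F. WT and Y665F did not overlap. The difference was -0.59 ± 0.15 (SE) against WT with an adjusted p of 0.0158 and -0.54 ± 0.14 (SE) against Y665H with 0.00861, by edgeR (-0.68 ± 0.12 (SE) without Y665H replicate 1). The receptors Fcgr1 (4.31 to 13.2 CPM) and Fcgr4 (3.97 to 16.9 CPM) and the endotoxin co-receptor Cd14 (2.91 to 11.97 CPM) passed in none of the spleen comparisons with all libraries. Their differences in Y665F against WT were -0.57 ± 0.25 (SE), -0.67 ± 0.29 (SE) and -0.23 ± 0.29 (SE). With Y665H replicate 1 left out, all 3 were lower in Y665F than in Y665H, at -0.68 ± 0.21 (SE), -0.87 ± 0.22 (SE) and -0.88 ± 0.25 (SE), with adjusted p of 0.0192, 0.00566 and 0.0131 in edgeR.

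Lgmn, an asparaginyl endopeptidase of lysosomes, processes proteins taken up by the cell. It stood at 133, 111, 133 and 133 CPM in WT, 115, 148, 153, 155 and 126 in Y665H and 91.2, 98.5 and 105 as lowest, median and highest in Y665F. No Y665F spleen overlapped the other groups. The difference was -0.37 ± 0.079 (SE) against WT with an adjusted p of 0.00574 and -0.50 ± 0.074 (SE) against Y665H with 0.000154 in edgeR. Without Y665H replicate 1 the second was -0.59 ± 0.064 (SE), and Lgmn was also higher in Y665H than in WT, at 0.22 ± 0.073 (SE) with an adjusted p of 0.0346.

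Lyz2, the lysozyme of macrophages, monocytes and neutrophils, is the member with the highest level per length. WT spleens held 1289, 1093, 1199 and 1215 CPM, Y665H spleens 1025, 1221, 1204, 1178 and 1352 and Y665F spleens 1065, 1148 and 1222 as lowest, median and highest. The ranges of the 3 genotypes overlapped. Y665F differed from WT by -0.058 ± 0.067 (SE), with an adjusted p of 0.611 in edgeR and an interval from -0.19 to 0.073. Its neighbour Lyz1, at 12.05 to 33.14 CPM, was higher in Y665F than in Y665H, with a log2 fold change of 0.57 ± 0.20 (SE) with an adjusted p of 0.0459, which it no longer passed in 10 of 19 alternatives. With Y665H replicate 1 left out, the value was 0.64 ± 0.21 (SE) with 0.0277. The cathepsin Ctsb (431 to 874 CPM) was lower in Y665F than in Y665H, with a log2 fold change of -0.38 ± 0.14 (SE) with 0.048, and passed in 3 of 19 alternatives. Ctsd (226 to 404 CPM) passed in none of the comparisons with all libraries. Without Y665H replicate 1 Ctsb and Ctsd were higher in Y665H than in WT, at 0.51 ± 0.10 (SE) and 0.40 ± 0.11 (SE), and lower in Y665F than in Y665H, at -0.55 ± 0.091 (SE) and -0.31 ± 0.098 (SE). The adjusted p in edgeR were 0.00159 and 0.013 for the former and 0.000174 and 0.0192 for the latter.

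For lipid handling, Apoe, the apolipoprotein that macrophages secrete, was lower in Y665F than in Y665H, with a log2 fold change of -0.35 ± 0.10 (SE) with an adjusted p of 0.0191 in edgeR (-0.34 ± 0.11 (SE) without Y665H replicate 1), at 244 to 386 CPM over the spleens. Nr1h3, the oxysterol receptor LXR alpha, which marginal-zone macrophages need, ranged from 15.4 to 44.6 CPM and passed in none.

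Members were also set against Csf1r within each library, as a description chosen after the values were seen. Cd163 amounted to 21.2, 21.6, 16.4 and 18.2 CPM per 100 CPM of Csf1r in WT, to 13.7 to 22.5 in Y665H and to 6.56 to 9.91 in Y665F. Y665F lay below every other library, Y665H replicate 1 (15.2) included. Mrc1 gave 58.4 to 86.6 in WT, 40.8 to 68.2 in Y665H and 29.2 to 43.3 in Y665F, so that Y665H replicate 1 overlapped Y665F. Spic gave 17.7 to 29.1 in WT, 15.4 to 23.0 in Y665H and 12.6 to 16.9 in Y665F. Vcam1 gave 128 to 194 in WT, 110.1 to 152 in Y665H and 95.7 to 126 in Y665F. For both, Y665H overlapped WT and Y665F. C1qa gave 17.2 to 18.6 in WT, 18.4 to 22.1 in Y665H and 14.5 to 18.2 in Y665F, so that it overlapped between Y665F and WT and was higher in every Y665H than in every Y665F spleen. Cd68 gave 7.25 to 9.34, 6.53 to 9.61 and 7.73 to 9.58 in the same order. Lyz2 gave 249.9 to 372.8, 230.1 to 410.7 and 292.6 to 402.5. Relative to Csf1r, Cd163, Mrc1, Spic and Vcam1 of Y665F lay below every WT library, while C1qa, Cd68 and Lyz2 overlapped WT.

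**Figure D4:**
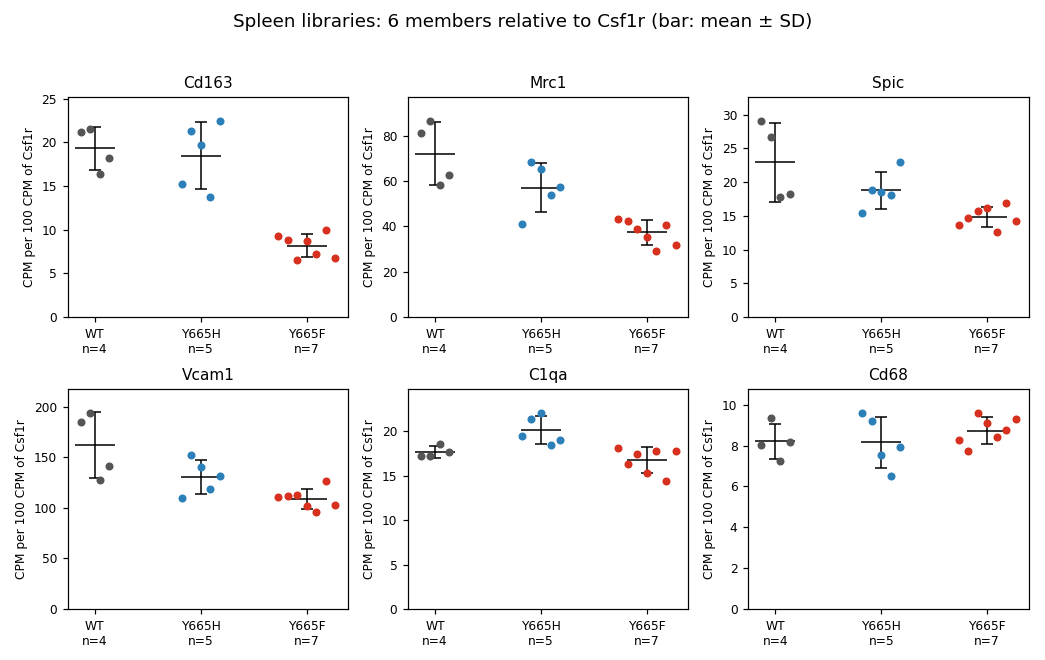
CPM of 6 members per 100 CPM of Csf1r in each spleen library, with the mean ± SD of each genotype. Cd163 lies between 6.56 and 9.91 in Y665F and at 13.7 or above elsewhere, whereas C1qa and Cd68 overlap between Y665F and WT.

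Of 28 other iron and heme genes tested, the test gave 4 lower and 1 higher in Y665F against WT (6.59% and 5.63% of all genes), with a median of -0.067. The 3 with the smallest adjusted p were Heph, a ferroxidase (-0.65 ± 0.11 SE, adjusted p = 0.0017), Trf, the plasma iron carrier transferrin (-0.63 ± 0.15 SE, adjusted p = 0.0113), and Fbxl5, an iron-sensing ubiquitin ligase adaptor (-0.23 ± 0.059 SE, adjusted p = 0.0177), by edgeR. In Y665H against WT, 12 of 28 were higher and 2 lower (10.7% and 9.05% of all genes), with a median of 0.29. Slc11a2, a ferrous iron transporter (0.80 ± 0.16 SE), Hp, the hemoglobin-binding haptoglobin (1.81 ± 0.41 SE), and Tfrc, the transferrin receptor that red cell precursors carry (1.75 ± 0.40 SE), had the smallest adjusted p there, of 0.00315, 0.00526 and 0.00625 in edgeR. Erythroid sums were high in the Y665H spleens other than replicate 1, which summed to 1358 CPM. The part of red cell precursors in these values was not tested.

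Of 16 macrophage transcription factors, 1 rose and 2 fell in Y665F against WT (5.63% and 6.59% of all genes), namely Runx3, which T cells also express (0.43 ± 0.092 SE), Zeb2 (-0.25 ± 0.073 SE) and Gata6 (-0.49 ± 0.14 SE), and none passed in Y665H against WT. Of 16 growth and survival ligands and their receptors, 3 rose and 1 fell in Y665F against WT, to be read beside the same shares. Csf2rb, the shared chain of the GM-CSF receptor, rose by 0.35 ± 0.062 (SE), its paralog Csf2rb2 by 0.43 ± 0.094, and Tgfb1, a cytokine made by many cells, by 0.49 ± 0.090, with adjusted p of 0.0018, 0.00723 and 0.00234 in edgeR. Csf1 and Il34, the ligands of Csf1r, are in that list.

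Isolated T cells held little of the macrophage program. The 18 macrophage markers summed to 20.1 to 124 CPM over the 14 splenic T-cell libraries, to 4.36 to 13.5 in null CD4+ T cells and to 2.62 to 6.99 in WT CD4+ T cells, against 1229 to 2377 in spleens. The T cell markers summed to 1129 to 4040 CPM, 4226 to 6182 CPM and 3026 to 4793 CPM in the same 3 sets. Reads on genes ranged from 2017012 to 27394249 in splenic T cells, so 1 CPM stood for as few as 2.02 reads there.

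In splenic T cells with interleukins, none of 35 members passed the adjusted p in edgeR in Y665F against WT, where 1.44% of all genes passed it and 1.32% were called. None passed in Y665H against WT, where the shares were 0% and 0% and DESeq2 called 28 genes. None passed in Y665F against Y665H, where they were 2.74% and 2.5%, or in Y665F cells with against without interleukins, where they were 3.08% and 2.63%. At an unadjusted p under 0.05 the members numbered 3, 6, 7 and 3, and DESeq2 called 0, 0, 2 and 0 of them. The medians over the members were -0.05, 0.55, -0.57 and -0.66 in this order, against 0.085, -0.121, 0.15 and -0.131 over all genes. The 2 called by DESeq2 were Treml4 and Apoe, lower in Y665F than in Y665H, whose adjusted p in edgeR were 0.0796 and 0.0893. Lyz2 measured 99.8, 112, 97.9 and 98.1 CPM in WT, 4.46, 252 and 274 in Y665H, 200.4, 65.1, 50.2 and 65.1 in Y665F and 216, 69.0 and 68.8 in Y665F without interleukins. Y665H replicate 1 stood apart from replicates 2 and 3 here and in summed macrophage markers, with 20.1, 122 and 124 CPM. In a chi-square per gene between 2 libraries, where 1 is sampling noise, replicates 2 and 3 gave 3.76. Replicates 1 and 2 gave 24.8. The labels do not say whether replicates 2 and 3 are independent. With Y665H replicate 1 left out, Treml4, Apoe, Hmox1 and Csf1r were called in Y665F against Y665H and Slc40a1 in Y665H against WT. On the Y665H side these calls rest on replicates 2 and 3 alone. Y665F replicate 3 with interleukins held 2851451 reads on genes and also stood apart. Its T cell markers summed to 1129 CPM, against 1950 to 3180 in the other Y665F libraries with interleukins. Its B cell markers summed to 817 CPM against 25.5 to 244, and its erythroid markers to 1338 CPM against 16.8 to 116. Without Y665F replicate 1, Ctsd was called in Y665F against WT, and without Y665F replicate 3, Treml4 in Y665F against Y665H.

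In Stat5a/b-null CD4+ T cells, 1 of 32 members, Ctsb, was lower with Y665F than with the empty vector and none was called, where 9.58% of all genes passed the adjusted p and 2.37% were called. Ctsb stood at 195, 180.4 and 215 CPM with Y665F and at 270.4, 247 and 242 with the empty vector, without overlap. The log2 fold change was -0.36 ± 0.095 (SE) with an adjusted p of 0.0199 in edgeR, and it did not pass without empty-vector replicate 1 (0.137) or 2 (0.0517), without Y665F replicate 1 (0.0805) or 2 (0.184), or in a fit of the compared vectors alone (0.0854). None of 32 members passed in Y665H against the empty vector in edgeR, where 0.0249% of all genes passed the adjusted p and 0.0249% were called, with 0 at an unadjusted p under 0.05 and 0 by DESeq2.

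Some members were abundant in CD4+ T cells, and those named here and Lyz2 above were chosen after their values were seen. Fth1 (315 to 434 CPM in null cells), Ftl1 (539 to 667), Ctsb (180.4 to 270.4) and Ctsd (106 to 186) are genes that most cells express. Axl, among the receptors, stood at 88.5 to 174 CPM in null and 59.2 to 131 in WT CD4+ T cells, against 162 to 345 in spleen and 1.95 to 7.03 in splenic T cells. Spic, Cd163, Slc40a1, Lyz2, Marco and the C1q genes were at most 0.38 CPM in the null cells.

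**Figure D5:**
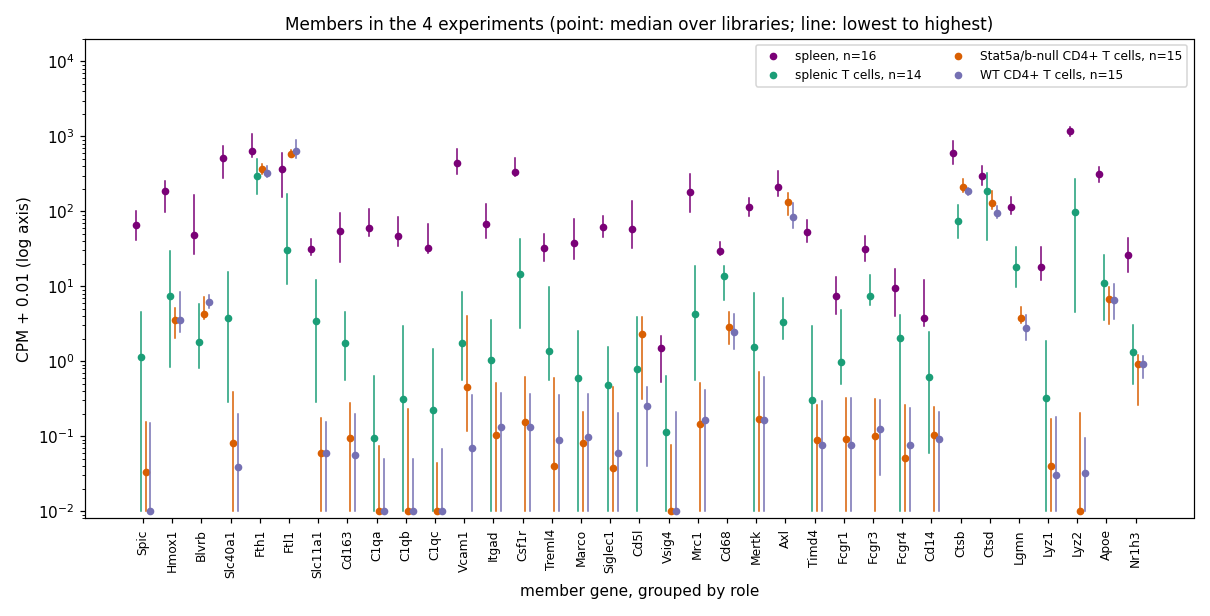
CPM of each member, plus 0.01 and on a log axis, in spleens (n = 16), splenic T cells (n = 14) and CD4+ T cells of 2 backgrounds (n = 15 each), with points for the median and lines from the lowest to the highest library. Most members stand far higher in spleen, while Fth1, Ftl1, Ctsb, Ctsd and Axl are also high in CD4+ T cells.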

How the data were processed

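RNA-seq was analysed from 60 of 61 libraries. The authors deposited raw read counts per gene for each library, made per the submitters' processing notes with FastQC 0.11.9, Trimmomatic 0.36, STAR, SAMtools 1.9, Picard 2.9.2 and HTSeq 0.9.1 on build mm10. The library kit keeps strand, and the strand setting of the counting was not given in the sources used here. Each file held 24421 genes and 5 summary lines on unassigned reads, not used in library sizes or tests (62.8% to 69.4% of reads in spleens, 63.9% to 85.7% in splenic T cells and 28.4% to 36.9% in CD4+ T cells).

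Groups came from the labels. Each experiment was fitted on its own with edgeR 4.0.16 (R 4.3.3), using TMM scaling, genes with at least 10 reads over the fit, the quasi-likelihood test with all groups in 1 fit, and Benjamini-Hochberg adjustment over all genes. A gene was called at an adjusted p under 0.05 with a log2 fold change beyond 1. CPM are deposited counts scaled to the TMM-adjusted library size within an experiment. The SE was derived from the log2 fold change and the F statistic, as the former over the root of the latter. Nothing in the labels ties each library to its own animal or culture, so p-values measure the spread between libraries, which may be technical. The counts of Y665H replicate 4 of the splenic T cells are the exact sum of replicates 1 and 2 at all 24421 genes, found in a search of all libraries of an experiment. The design had 15 splenic T-cell libraries in the fit. This one was left out after the data were seen so that no read counts more than 1 time, and the fit with it is an alternative. The lowest chi-square per gene over the 85 replicate pairs left was 3.76, where 1 is sampling noise. It belonged to Y665H replicates 2 and 3 of the splenic T cells.

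The members and gene lists were chosen with earlier results of these data known. Values by library are given for 17 members, namely the 12 with the smallest adjusted p in any spleen comparison and Spic, Hmox1, Slc40a1, Vcam1, C1qa, Csf1r, Lyz2 and Fth1 whatever their result. From other lists, at most 3 genes past the adjusted p were named, those with the smallest. Promoter sequences came from the RefSeq table of GRCm38.p6 and gene positions from GENCODE on GRCm38. DESeq2 1.42.0, other scaling and filters, a fit of the compared groups alone, a replicate block and leaving out each library were alternatives. Those on members past the adjusted p alone, and the fit with the summed library, were added after seeing the data. On simulated counts of the 19418 spleen genes, the test of Y665F against WT recovered 98 of 100 genes changed by 1.5 on the log2 scale and 99 of 100 changed by 2, with 3 false calls. In splenic T cells with interleukins it recovered 85 and 99 of 100, with 15 false calls. The changed genes were drawn from the more abundant ones. Smaller changes, such as most of those reported for members, were not simulated.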

Additional observations from a re-analysis of the deposited data

Results flagged for a closer look

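Of 68 sets of 4 to 10 values in spleens and T cells checked, 4 held a library far from the others of its group, where chance gives about 1 in 20. Lgmn, the lysosomal endopeptidase, measured 111.4 CPM in WT replicate 2, and the nearest WT spleen measured 132.7. The monocyte markers of the same library summed to 694.6 CPM, and the nearest WT sum was 749.8. Timd4, the phosphatidylserine receptor, measured 76.07 CPM in Y665H replicate 4, with the nearest Y665H spleen at 58.0. The T cell markers of Y665H replicate 1 summed to 735.8 CPM, with the nearest Y665H sum at 552.5.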

How the results depend on the processing

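Counts of members depended most on the replicate block and on Y665H replicate 1, and the cause was not tested. With the replicate block in spleens, 1 member (Cd163) was lower in Y665F against WT and 1 was called, and 8 were lower and 0 higher in Y665F against Y665H. Same-numbered libraries deviated together (r above 0.1) in 4 of 13 spleen pairs and 5 of 19 T-cell pairs. They did so in 29 of 30 CD4+ pairs of either background, with a median r of 0.455 in null and 0.691 in WT. The lowest r was 0.0715 in null and -0.12 in WT. Numbers count as pairs here only where every pair is above 0.1, so they were not taken as pairs. The main fit of null CD4+ T cells thus left what same-numbered libraries shared in the spread between libraries. Ctsb in null CD4+ T cells with Y665F also passed with the block, at an adjusted p of 0.00395 in edgeR. With no fold minimum, 9, 2 and 17 members were called in Y665F against WT, Y665H against WT and Y665F against Y665H, and 1 in null CD4+ T cells with Y665F. In a fit of the compared groups alone, 14 were lower in Y665F against WT, 1 lower in Y665H against WT and 0 higher in Y665F against Y665H. Leaving out 1 library at a time gave 2 to 7 members higher in Y665H against WT, 12 to 28 lower and 0 to 1 higher in Y665F against Y665H with 2 to 4 called, and, in T cells, 0 to 1 called in Y665F against WT, 0 to 1 in Y665H against WT and 0 to 4 in Y665F against Y665H. In Y665F against Y665H T cells, 2 were called with DESeq2. With the Y665H T-cell library that is the sum of 2 others, no member was called in any T-cell comparison, and of all genes 1066 in place of 557 were called in Y665F against Y665H and 16 in place of 0 in Y665H against WT. DESeq2 called 28 genes in the latter and 1011 in the former, and 873 in place of 295 in Y665F against WT. With the replicate block, 140 were called in Y665F against WT, 326 in Y665F against Y665H and 2 in Y665H against WT, with no filter 8 in the last, and in a fit of 2 groups alone 194 in Y665F against WT. With RLE size factors the median of all genes in Y665F against WT T cells was 0.205 in place of 0.0852, in Y665H against WT -0.0107 in place of -0.121, and in Y665F cells with against without interleukins -0.274 in place of -0.131. Over 28 results on single members, 461 alternatives kept the adjusted p under 0.05, 56 lost it and 0 reversed. Vsig4 in Y665F against WT lost it in 8 of 18. The shallowest T-cell library held 2017012 reads on genes.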

Other observations

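In CD4+ T cells, Cd5l, the secreted inhibitor of apoptosis, measured 0.31 to 3.86 CPM over the 15 null libraries and 0.03 to 0.44 CPM over the 15 WT libraries. The 2 backgrounds were scaled separately and the difference was not tested. Megakaryocyte markers summed to 226 to 362 CPM in Y665F spleens and to 149 to 231 CPM in WT spleens, and 5 of 6 were higher in edgeR at an adjusted p under 0.05.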
